A study of Mus musculus with 10 samples.

Results

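The genes described here are 38 mouse genes that encode nuclear receptors other than the glucocorticoid receptor (GR). They were taken from a list of gene symbols, all 38 were found among the 21000 genes with a curated protein-coding (NM_) transcript in RefSeq on GRCm38, and the rule uses no measured value, although the genes were listed with earlier results of these data known. For each gene, peaks were counted when their midpoint lay at a promoter (from 1 kb before a transcription start site, TSS, to 100 bp after it), in the gene body, or within 30 kb of a TSS. The peaks came from chromatin immunoprecipitation sequencing (ChIP-seq) of skeletal muscle of C57BL/6J mice, labelled as 10 weeks old, with the text of the study giving another age and limb muscle of male mice. One group of mice was fed and the other was starved for 24 h, and no transgene or drug is named for these libraries. In each condition 1 library was made with an antibody against GR, 1 against lysine-specific demethylase 1 (LSD1), 1 against histone H3 monomethylated at lysine 9 (H3K9me1) and 1 against the dimethylated form (H3K9me2), and 1 from input chromatin. Peak lists were analysed for 8 of the 10 libraries, and the input libraries were used by the authors as peak calling controls. With 1 library per antibody and condition no test between conditions could be made, so every difference describes these libraries. In bulk muscle, binding in fewer nuclei and weaker binding per nucleus cannot be told apart.

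Nuclear receptors are transcription factors, many of which are switched by small lipophilic ligands such as steroids, thyroid hormone, retinoids, oxysterols and bile acids. Steroid receptors such as GR bind DNA mostly as homodimers on inverted repeats, whereas the retinoic acid, thyroid hormone, vitamin D and liver X receptors pair with a retinoid X receptor (RXR) on direct repeats. In muscle, members of the family set fibre type, lipid use and the response to fasting, and LSD1 is a demethylase that removes methyl groups from histone H3, including H3K9me1 and H3K9me2.

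The peak lists differed in length and stringency. For GR they held 14108 peaks in fed and 37783 in starved muscle, for LSD1 16616 and 66332, for H3K9me1 14178 and 38023, and for H3K9me2 171402 and 6624. The LSD1 starved list is many times longer than the one the study describes and may be another version, so every LSD1 starved value below rests on the deposited list. The GR lists held no peak under 117 bp (fed) or 110 bp (starved), but the other 6 lists reached down to 49 to 55 bp. Sets of 4 numbers are given below for GR and then LSD1, fed before starved. The labels carry 2 library codes. Both GR libraries and both input libraries share one code and both LSD1 libraries carry the other. Between GR and LSD1, antibody and code therefore cannot be told apart. For H3K9me1 and H3K9me2, condition and code cannot be told apart. As a check of the tissue, 6 of 10 skeletal muscle marker genes had a promoter peak in each of the 4 GR and LSD1 lists. Of 15 marker genes of liver, fat, endothelium, macrophages and neurons, 0, 0, 0 and 2 did. The shares of all genes were 15.1%, 26.0%, 25.4% and 18.0%. Within 30 kb of a TSS the 2 sets were less distinct. There, all 10 muscle genes had a peak in each list, and 5, 9, 6 and 14 of the 15 other genes did. The shares of all genes were then 42.2%, 65.2%, 51.5% and 81.8%.

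Of the 38 promoters, 7 carried a peak of both GR and LSD1 in fed and in starved muscle (*Nr1h3*, *Nr2c2*, *Nr3c2*, *Nr4a3*, *Rarg*, *Rxrb* and *Thrb*), where 4.69% of all genes did. With the q-value limited to 0.01, the false discovery rate that the study states, 1 of the 7, *Rxrb*, remained (0.381% of all genes). In the 3 lists other than LSD1 starved, 8 promoters were called, these 7 and *Nr4a1* (8.27% of all genes). For 6 of them, all but *Rarg*, the 4 peaks shared common bases. Those of 4 genes are printed because they lie outside exons and mark where the calls of all 4 lists coincide. They are read 5′ to 3′ along the strand of the gene from the RefSeq genome GRCm38, and capitals mark a CCAAT box (CCAAT or its complement ATTGG) or a GC box (GGGCGG or its complement CCGCCC).
*Nr1h3* (chr2:91195170-91195207, minus strand, bases -91 to -54 from a TSS): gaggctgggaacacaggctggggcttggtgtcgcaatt
*Nr2c2* (chr6:92092141-92092289, plus strand, bases -292 to -144): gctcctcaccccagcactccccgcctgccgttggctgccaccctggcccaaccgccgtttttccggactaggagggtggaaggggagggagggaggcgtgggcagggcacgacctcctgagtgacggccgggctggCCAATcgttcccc
*Nr3c2* (chr8:76902018-76902212, plus strand, bases -312 to -118): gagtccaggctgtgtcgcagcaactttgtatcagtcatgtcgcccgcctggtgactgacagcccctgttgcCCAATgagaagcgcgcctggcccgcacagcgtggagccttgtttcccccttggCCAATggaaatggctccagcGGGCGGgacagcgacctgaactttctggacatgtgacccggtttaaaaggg
*Nr4a3* (chr4:48044736-48044903, plus strand, bases -569 to -402): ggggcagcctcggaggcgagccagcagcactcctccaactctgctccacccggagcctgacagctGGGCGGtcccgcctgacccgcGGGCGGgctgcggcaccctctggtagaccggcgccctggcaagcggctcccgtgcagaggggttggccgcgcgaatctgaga

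*Nr3c2*, the mineralocorticoid receptor gene and the closest relative of GR, held 2 CCAAT boxes and 1 GC box in its common bases. Windows of the same length and offset from the TSS held a CCAAT box in 24.5% and a GC box in 22.0% of all 21000 promoters. *Nr4a3* held 2 GC boxes, and 8.21% of all promoters held one there. *Nr2c2* held 1 CCAAT box, against 19.2% of promoters, and the 38 bases of *Nr1h3* held neither box. Both boxes were chosen after the sequences had been read.

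A sequence like the glucocorticoid response element (GRE), here the hexamer AGAACA followed after 3 bases by its inverted repeat TGTTCT with at most 1 mismatch in these 12 letters, was found at 2 of the 38 genes. They are shown on the plus strand with 7 bases on each side and the hexamers in capitals.
*Rxra* (chr2:27758571-27758599, intron, 48.0 kb downstream of a TSS): tcagcagAAAACAgccTGTTCTctggcac
*Thra* (chr11:98738756-98738784, 3.02 kb upstream of the TSS): agcctagAGAACAggcTGTTCCtgctgcc

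The *Rxra* sequence lay in a GR fed, a GR starved and an LSD1 fed peak, and the *Thra* sequence lay in a GR starved peak alone. Within 30 kb of the 38 genes, 0 of 56 GR fed peaks held such a sequence, which allows a share of up to 6.38% (exact 95% binomial upper bound), against 1.73% of all 9240 GR fed peaks within 30 kb of a gene. In starved muscle 1 of 120 peaks did (0.833%, exact 95% interval 0.0211 to 4.56), against 0.596% of 23989 peaks. At these numbers no difference from the background was detectable. A pair of AGGTCA hexamers in direct repeat with at most 1 mismatch, searched on both strands, was found in 2 of 120 GR starved peaks with a spacing of 1 base (0.967% of all such peaks) and in 0 with a spacing of 4 bases (0.521% of all).

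The first comparison asked how many of the promoters were called in each list. GR peaks were called at 10 of the 38 promoters in fed muscle (26.3%, exact 95% interval 13.4 to 43.1) and at 15 in starved muscle (39.5%, 24.0 to 56.6). Among all 21000 genes the shares were 15.1% and 26.0%. LSD1 peaks were called at 13 promoters in fed muscle (34.2%, 19.6 to 51.4) and at 8 in starved muscle (21.1%, 9.55 to 37.3), against 25.4% and 18.0% of all genes. So the number rose for GR and fell for LSD1, as it did over all genes. The 4 member shares as deposited were above the background, and the background lay inside all 4 intervals. The intervals cover counting error only. When the fed and starved lists of an antibody were cut to equal length by q-value, the GR promoters numbered 10 and 9 (15.1% and 13.7% of all genes), and the LSD1 promoters 13 and 6 (25.4% and 7.55%). When only the TSS of the longest transcript was used, the GR promoters numbered 6 and 8 (13.7% and 23.7% of all genes), and the starved share of the receptor genes, 21.1%, was then below that of all genes. With the q-value limited to 0.01, 7 and 9 promoters remained for GR (background 9.03% and 12.7%) and 7 and 4 for LSD1 (background 11.8% and 3.39%).

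**Figure D1:**
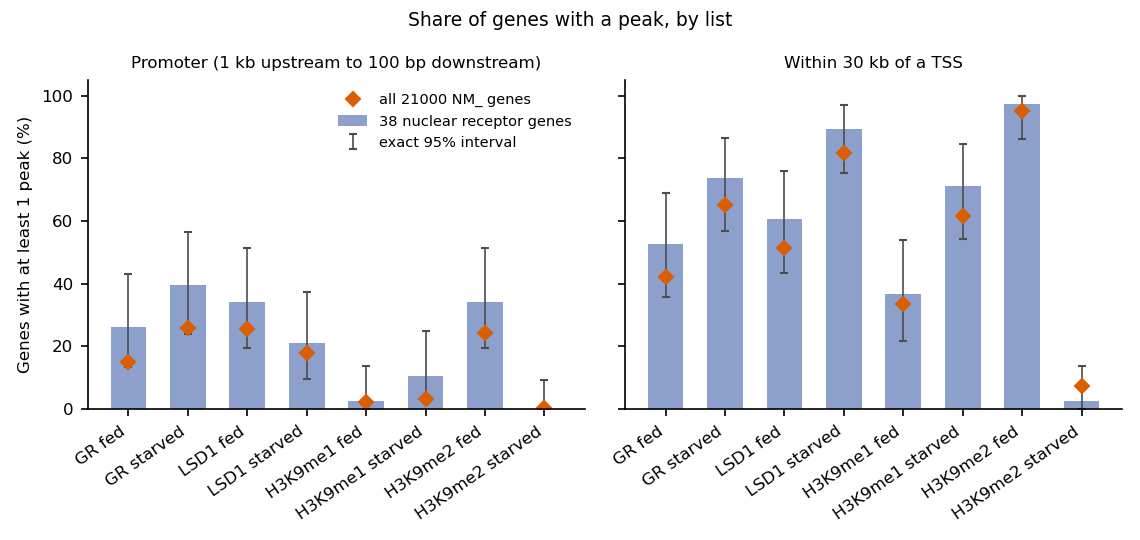
Percent of genes with at least 1 peak in each of the 8 lists, at the promoter (left) and within 30 kb of a TSS (right). Bars are the 38 nuclear receptor genes with exact 95% binomial intervals and diamonds are all 21000 genes with an NM_ transcript. The bars for GR and LSD1 sit above the diamonds in both panels, and the intervals reach down to or below each of these diamonds.

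By gene, GR was called at the promoter in both conditions for 9 genes (background 11.0%), in fed muscle alone for 1 (4.13%) and in starved muscle alone for 6 (15.0%). The 9 genes were the 7 named above with *Nr4a1* and *Rxrg*. *Nr4a1* is an immediate early gene that encodes the orphan receptor NUR77, and *Rxrg* encodes an RXR form found in muscle. The single fed gene was *Nr1h2*, which encodes the oxysterol sensor liver X receptor beta. A GR starved peak of *Nr1h2* had its midpoint 373 bp after the TSS, outside the promoter window. The 6 starved genes were *Rara*, *Rarb* and *Rxra*, which encode retinoid receptors, *Nr1h4*, the bile acid receptor gene, *Esrrb*, an estrogen-related receptor gene, and *Rorb*, an orphan receptor gene. LSD1 was called in both conditions for the same 7 genes as above (background 10.8%), in fed muscle alone for 6, namely *Nr2c1*, *Nr4a1*, *Nr6a1*, *Rara*, *Rarb* and *Rxra* (14.6%), and in starved muscle alone for *Esr1*, the estrogen receptor alpha gene (7.17%). *Rara*, *Rarb* and *Rxra* thus had an LSD1 promoter peak in the fed list alone and a GR promoter peak in the starved list alone, as did 4.23% of all genes. With the q-value limited to 0.01 none of the 3 did, while *Rarg* then did (2.14% of all genes). Both proteins were called at 8 promoters in fed muscle (10.6% of all genes) and at 7 in starved muscle (10.4%), and 19 promoters carried at least 1 of the 4 calls (41.7%).

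**Figure D2:**
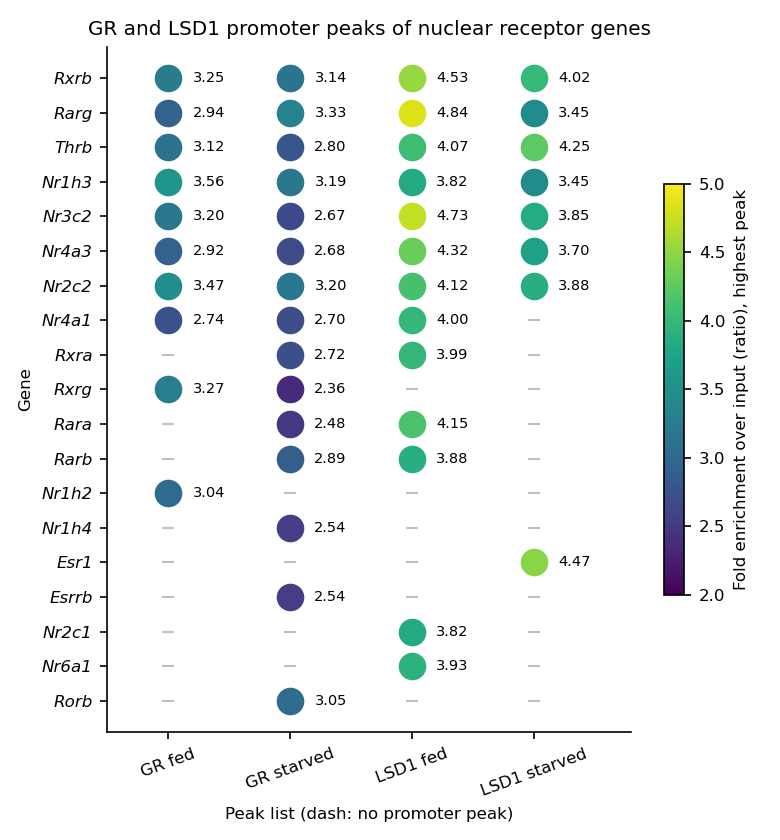
GR and LSD1 promoter peaks of the 19 nuclear receptor genes that had at least 1. Each dot is a called promoter peak, its colour and the number beside it give the fold enrichment over input (a ratio, highest peak where a promoter has more than 1), and a dash is a promoter without a peak. The upper 7 rows are filled in all 4 lists.

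The promoter peaks were modest in height. At *Nr3c2* the fold enrichment over input was 3.20 in GR fed (chr8:76901925-76902252), 2.67 in GR starved (chr8:76902018-76902571), 4.73 in LSD1 fed (chr8:76901988-76902212) and 3.85 in LSD1 starved (chr8:76901967-76902214). At *Nr1h3*, the liver X receptor alpha gene, it was 3.56 in GR fed (chr2:91195091-91195224), 3.19 in GR starved (chr2:91195170-91195513), 3.82 in LSD1 fed (chr2:91194930-91195220) and 3.45 in LSD1 starved (chr2:91195021-91195207). At *Nr4a3*, a relative of *Nr4a1*, it was 2.92 in GR fed (chr4:48044736-48044903), 2.68 in GR starved (chr4:48044527-48045043), 4.32 in LSD1 fed (chr4:48044550-48045036) and 3.70 in LSD1 starved (chr4:48044600-48045049). Each of the 3 promoters had its higher fold in fed muscle for both proteins.

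At *Thrb*, which encodes thyroid hormone receptor beta, the folds were 3.12 in GR fed (chr14:17659955-17661414), 2.80 in GR starved (chr14:17660258-17661559), 4.07 in LSD1 fed (chr14:17660763-17660993) and 4.25 in LSD1 starved (chr14:17660789-17661148). The 2 GR peaks there were 1460 and 1302 bp long and the 2 LSD1 peaks were 231 and 360 bp long. At *Nr2c2*, which encodes the orphan receptor TR4, the folds were 3.47 in GR fed (chr6:92092069-92092552) and 3.20 in a GR starved peak of 1621 bp (chr6:92090986-92092606). In each condition 2 LSD1 peaks lay at that promoter. Their folds were 4.12 (chr6:92091422-92091476) and 3.79 (chr6:92091937-92092289) in fed muscle and 3.76 (chr6:92091419-92091473) and 3.88 (chr6:92092141-92092430) in starved muscle.

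*Rxrb*, the widely expressed RXR form, shares its promoter region with *Slc39a7*, a zinc transporter gene. Its folds were 3.25 in GR fed (chr17:34031445-34033018), 3.14 in GR starved (chr17:34031316-34031863), 4.53 in LSD1 fed (chr17:34031785-34032059) and 4.02 in LSD1 starved (chr17:34031764-34031872). It was the single promoter called for LSD1 in both conditions at a q-value of 0.01 or less (1.29% of all genes). The midpoint of the GR starved peak was nearer to the TSS of *Slc39a7* than to that of *Rxrb*, so these peaks cannot be assigned to 1 of the 2 genes. At *Rarg*, the retinoic acid receptor gamma gene, the folds were 2.94 in GR fed (chr15:102247094-102247253), 3.33 in GR starved (chr15:102246894-102247995) and 4.84 in LSD1 fed (chr15:102246991-102247205). The 2 LSD1 starved peaks at *Rarg* did not overlap the LSD1 fed peak. Their folds were 3.45 (chr15:102247355-102247557) and 3.29, the latter at another start site (chr15:102257737-102257959).

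The other 12 promoters were called in 1 to 3 lists. At *Nr4a1* the folds were 2.74 in GR fed (chr15:101266300-101266731), 2.70 in GR starved (chr15:101266416-101266920) and 4.00 in LSD1 fed (chr15:101266399-101266655), with no LSD1 starved peak. At *Rxrg* they were 3.27 in GR fed (chr1:167618105-167618615) and 2.36 in GR starved (chr1:167618171-167618305), with no LSD1 peak in either list. At *Rarb*, the retinoic acid receptor beta gene, an LSD1 fed peak of 3.88 (chr14:16575305-16575696) overlapped a GR starved peak of 2.89 (chr14:16575641-16575818). At *Rara*, the retinoic acid receptor alpha gene, the LSD1 fed peaks of 3.65 (chr11:98936762-98936943) and 4.15 (chr11:98937506-98937641) lay at one start site and the GR starved peak of 2.48 (chr11:98963775-98964109) at another. The latter overlapped a further LSD1 fed peak of 3.58 (chr11:98963699-98963832), whose midpoint fell 1.11 kb upstream and thus just outside the promoter window. At *Rxra* the LSD1 fed peak of 3.99 (chr2:27676853-27677030) and the GR starved peak of 2.72 (chr2:27676123-27676315) lay at the same start site without overlap. So of these 3 retinoid receptor genes, *Rarb* and, with the peak just outside the window, *Rara* had both calls at shared bases.

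Of the remaining 7 promoters, each had 1 call by the midpoint rule. *Nr1h2* had a GR fed peak of 3.04 (chr7:44554007-44554231) and *Esr1* an LSD1 starved peak of 4.47 that was 49 bp long (chr10:4709194-4709242). GR starved peaks were called at *Rorb* with 3.05 (chr19:19001908-19002045), *Nr1h4* with 2.54 (chr10:89533450-89533698) and *Esrrb* with 2.54 (chr12:86420922-86421175). LSD1 fed peaks were called at *Nr2c1*, which encodes the orphan receptor TR2, with 3.82 (chr10:94147566-94147884) and at *Nr6a1*, which encodes germ cell nuclear factor, with 3.93 (chr2:38926348-38926402). The q-value of the *Nr1h4* and the *Esrrb* peak was 0.0761, near the end of the list. Some of these genes had further peaks whose midpoints fell just outside the promoter window. At *Nr2c1* a GR starved peak 204 bp after the TSS overlapped the LSD1 fed peak. At *Nr6a1* a GR fed peak 138 bp after a TSS overlapped the LSD1 fed peak. *Nr1h2* had an LSD1 fed peak 121 bp and a GR starved peak 373 bp after the TSS.

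Within 30 kb of a TSS, GR peaks were called at 20 genes in fed muscle (52.6%, exact 95% interval 35.8 to 69.0) and at 28 in starved muscle (73.7%, 56.9 to 86.6), against 42.2% and 65.2% of all genes. LSD1 peaks were called at 23 genes in fed (60.5%, 43.4 to 76.0) and at 34 in starved muscle (89.5%, 75.2 to 97.1), against 51.5% and 81.8%. The background lay inside each interval. With lists of equal length the genes numbered 20 and 19 for GR (42.2% and 41.1% of all genes) and 23 and 21 for LSD1 (51.5% and 42.0%), so the rise did not hold. With the q-value limited to 0.01 there were 17 and 19 genes for GR (background 32.0% and 39.3%) and 18 and 12 for LSD1 (32.0% and 21.4%), and the direction turned for LSD1. With the limit at 1e-05 it turned for GR as well, with 9 and 6 genes (13.4% and 9.99% of all genes). Within 30 kb the 38 genes had 56 and 120 peaks of GR and 70 and 90 of LSD1, and no peak was counted for 2 genes. The nearest TSS of any gene was that of the receptor gene itself for 40 of 56, 78 of 120, 49 of 70 and 63 of 90 peaks.

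**Figure D3:**
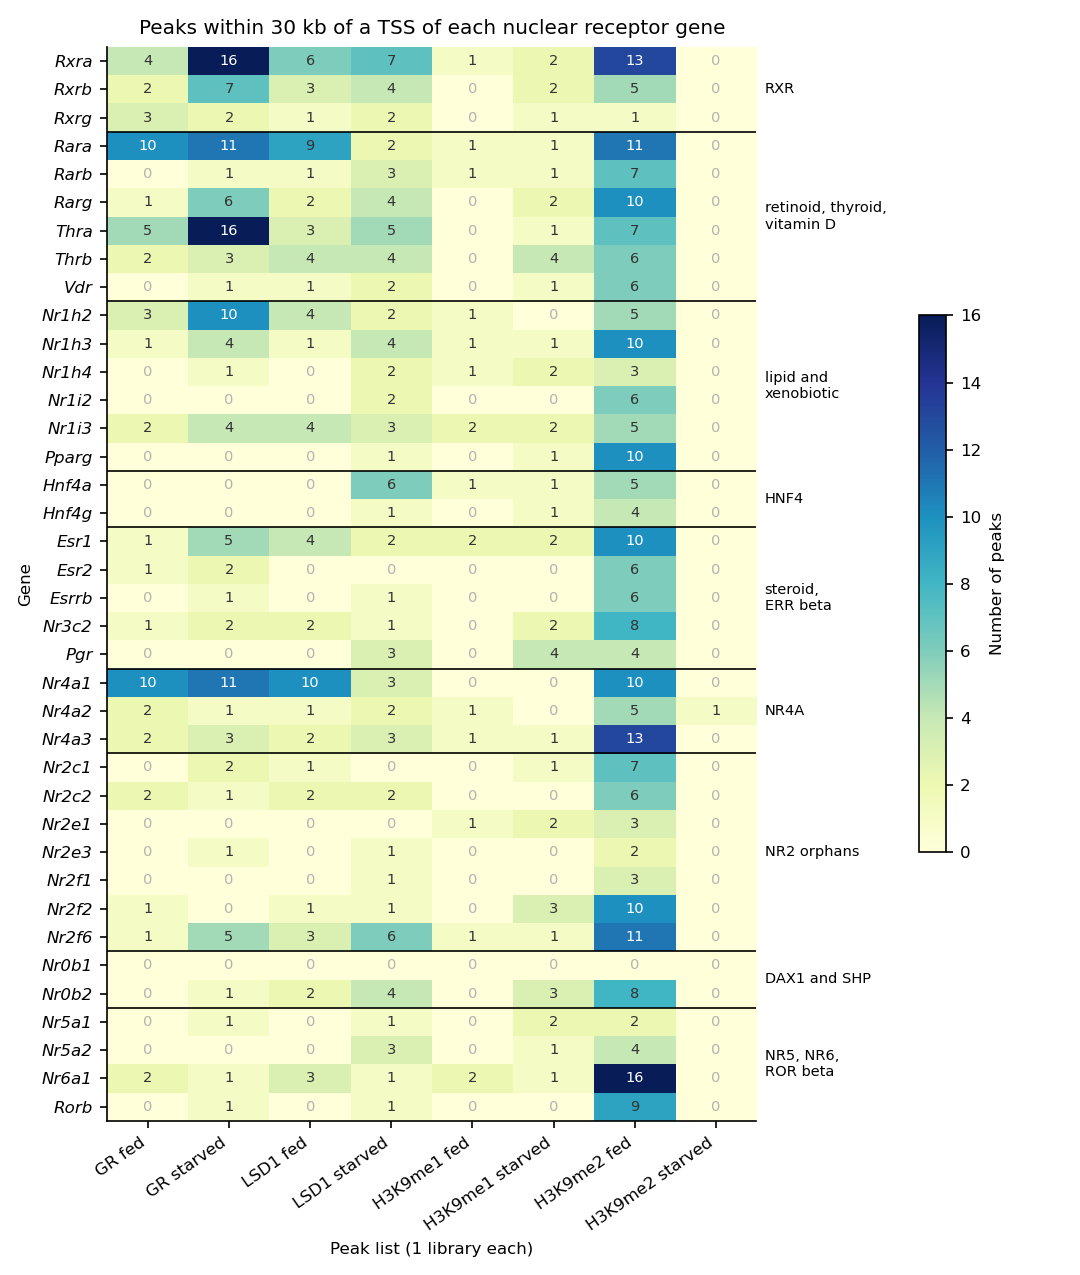
Number of peaks within 30 kb of a TSS of each of the 38 nuclear receptor genes (rows, grouped by role) in each of the 8 lists (columns, 1 library each). Darker cells hold more peaks. *Rxra* and *Thra* reach 16 peaks in GR starved, *Nr4a1* and *Rara* have 10 or 11 in both GR lists, and *Nr0b1* has 0 in all 8.

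By role, the numbers of peaks were as follows. The retinoid X receptors had 9, 25, 10 and 13 peaks within 30 kb. The 6 retinoid, thyroid hormone and vitamin D receptors had 18, 38, 20 and 20, and the 3 NR4A genes, which encode ligand-independent early response receptors, had 14, 15, 13 and 8. The 6 lipid, bile acid and xenobiotic sensors had 6, 19, 9 and 14. The 5 steroid and estrogen-related receptor genes had 3, 10, 6 and 7, and the 7 NR2 orphan receptor genes had 4, 9, 7 and 11. The 4 genes of the NR5, NR6 and ROR beta group had 2, 3, 3 and 6. *Hnf4a* and *Hnf4g*, which encode receptors of liver, gut and kidney, had 0, 0, 0 and 7 peaks. *Nr0b1* and *Nr0b2*, whose products DAX1 and SHP lack the DNA-binding domain and repress other receptors, had 0, 1, 2 and 4. The groups differ in size. The median per gene was 1, 1, 1 and 2 peaks in the 38 genes and 0, 1, 1 and 2 in all genes.

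Of the 38 genes, 9 had no GR peak within 30 kb in either condition, where 32.4% of all genes had none. They were *Hnf4a*, *Hnf4g*, *Nr0b1*, *Nr1i2*, which encodes the xenobiotic sensor PXR, *Nr2e1*, a receptor gene of neural stem cells, *Nr2f1*, which encodes COUP-TFI, *Nr5a2*, a receptor gene of liver and gut, *Pgr*, the progesterone receptor gene, and *Pparg*, the adipocyte receptor gene. *Hnf4a* had 6 LSD1 starved peaks and *Pgr* had 3, all without a counterpart in LSD1 fed. The 6 *Hnf4a* peaks had folds of 3.24 to 4.03, and 0 of them had a q-value of 0.01 or less. *Nr0b1* and *Nr2e1* had no GR or LSD1 peak in any window.

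*Nr4a1* had 10, 11, 10 and 3 peaks within 30 kb. Of the 10 GR fed peaks, 8 overlapped a GR starved peak and 8 an LSD1 fed peak, while 1 of the 10 LSD1 fed peaks overlapped an LSD1 starved peak. Most of these peaks lay upstream, between 5.22 and 27.8 kb from the TSS. The highest was an LSD1 fed peak of 6.27 at 6.09 kb upstream (chr15:101260523-101260994), which overlapped GR peaks of 4.36 in fed and 4.25 in starved muscle and an LSD1 starved peak of 3.31. It was the one site within 30 kb of *Nr4a1* that was called in all 4 lists.

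*Rara* had 10 and 11 peaks of GR and 9 and 2 of LSD1. Of its 10 GR fed peaks, 5 overlapped a GR starved peak and 3 an LSD1 fed peak. The peak shared by all 4 lists lay in an intron about 2 kb from a start site. Its fold was 4.57 in GR fed (chr11:98966708-98967097) and 4.23 in GR starved muscle, and 4.13 and 3.64 in the LSD1 lists. At both *Nr4a1* and *Rara* the LSD1 starved list thus held fewer peaks than the LSD1 fed list, although it was the longer list.

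*Thra*, which encodes thyroid hormone receptor alpha, the main form in muscle, had 5 and 16 peaks of GR and 3 and 5 of LSD1. All 5 GR fed peaks overlapped a GR starved peak. The highest lay 20.2 kb upstream in an intron of *Med24*, a Mediator subunit gene, with a fold of 8.60 in fed muscle (chr11:98721461-98721766) and 4.99 in the overlapping starved peak, and it overlapped an LSD1 fed peak of 3.99. A second lay in an intron of *Thra* 13.0 kb downstream of the TSS, with 5.31 in fed (chr11:98754283-98755357) and 5.37 in starved muscle (chr11:98754252-98755449) and no LSD1 peak in either condition. The 3′ part of *Thra* overlaps *Nr1d1*, the clock gene that encodes REV-ERB alpha, and 4 of the GR starved peaks between 22.7 and 27.9 kb had *Nr1d1* as their nearest TSS. No GR or LSD1 peak was called at the *Thra* promoter itself.

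*Rxra* had 4 and 16 GR peaks within 30 kb, and 6 and 7 LSD1 peaks. Including the rest of its body of 86.1 kb, these numbers were 5, 20, 8 and 10. All 5 GR fed peaks overlapped a GR starved peak, and 15 of 20 GR starved peaks had no fed counterpart. In an intron 14.3 kb downstream of a TSS the fold was 5.30 in GR fed (chr2:27691424-27691596), 4.84 in GR starved and 4.52 in LSD1 fed. The peak that holds the GRE-like sequence, 47.9 kb downstream, had a fold of 5.52 in GR fed (chr2:27758044-27758935) and 3.30 in GR starved, and was overlapped by LSD1 peaks in both conditions.

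*Nr1h2* had 3 and 10 GR peaks, and 4 and 2 LSD1 peaks. The highest lay 28.7 kb downstream at the promoter of *Mybpc2*, the fast skeletal myosin-binding protein C gene, with a fold of 5.80 in fed (chr7:44524824-44525624) and 3.76 in starved muscle. Unlike this peak, the GR fed peak of 5.30 at *Rxra* and that of 5.31 at *Thra* lay inside the receptor gene itself. Another GR fed peak of 5.11 lay in an intron of *Esrrb*, 62.0 kb from its TSS (chr12:86483572-86483802), with no overlapping peak in GR starved or LSD1.

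The other members had few peaks. *Nr4a2*, which encodes NURR1, had 2, 1, 1 and 2 peaks within 30 kb. Its LSD1 fed peak of 5.18 (chr2:57116796-57116985) lay in an intron, 1.85 kb upstream of a start site inside the gene. This peak overlapped a GR fed and an LSD1 starved peak. *Nr2f6*, which encodes the orphan receptor EAR2, had 1, 5, 3 and 6, and its highest, an LSD1 fed peak of 5.11 (chr8:71371696-71372174), lay in an exon of the neighbouring *Ocel1*. Another high LSD1 fed peak, 5.91 (chr14:16497428-16497571), lay in an intron of *Rarb* 78.0 kb from a TSS and was overlapped by peaks of the other 3 lists. *Nr1i3*, which encodes the xenobiotic receptor CAR, had 2, 4, 4 and 3 peaks, *Esr1* had 1, 5, 4 and 2, and *Esr2*, the estrogen receptor beta gene, had 1, 2, 0 and 0. *Vdr* had 0, 1, 1 and 2 peaks, *Nr2f2*, which encodes COUP-TFII, had 1, 0, 1 and 1, and *Nr2e3*, a photoreceptor gene, and *Nr5a1*, which encodes steroidogenic factor 1, had 0, 1, 0 and 1 each. *Nr5a2* had 0, 0, 0 and 3, *Nr1i2* had 0, 0, 0 and 2, and *Nr2f1*, *Pparg* and *Hnf4g* had 0, 0, 0 and 1 each. LSD1 was called in starved muscle alone within 30 kb of 12 genes (34.3% of all genes), and 11 of them had 1 to 3 such peaks.

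**Figure D4:**
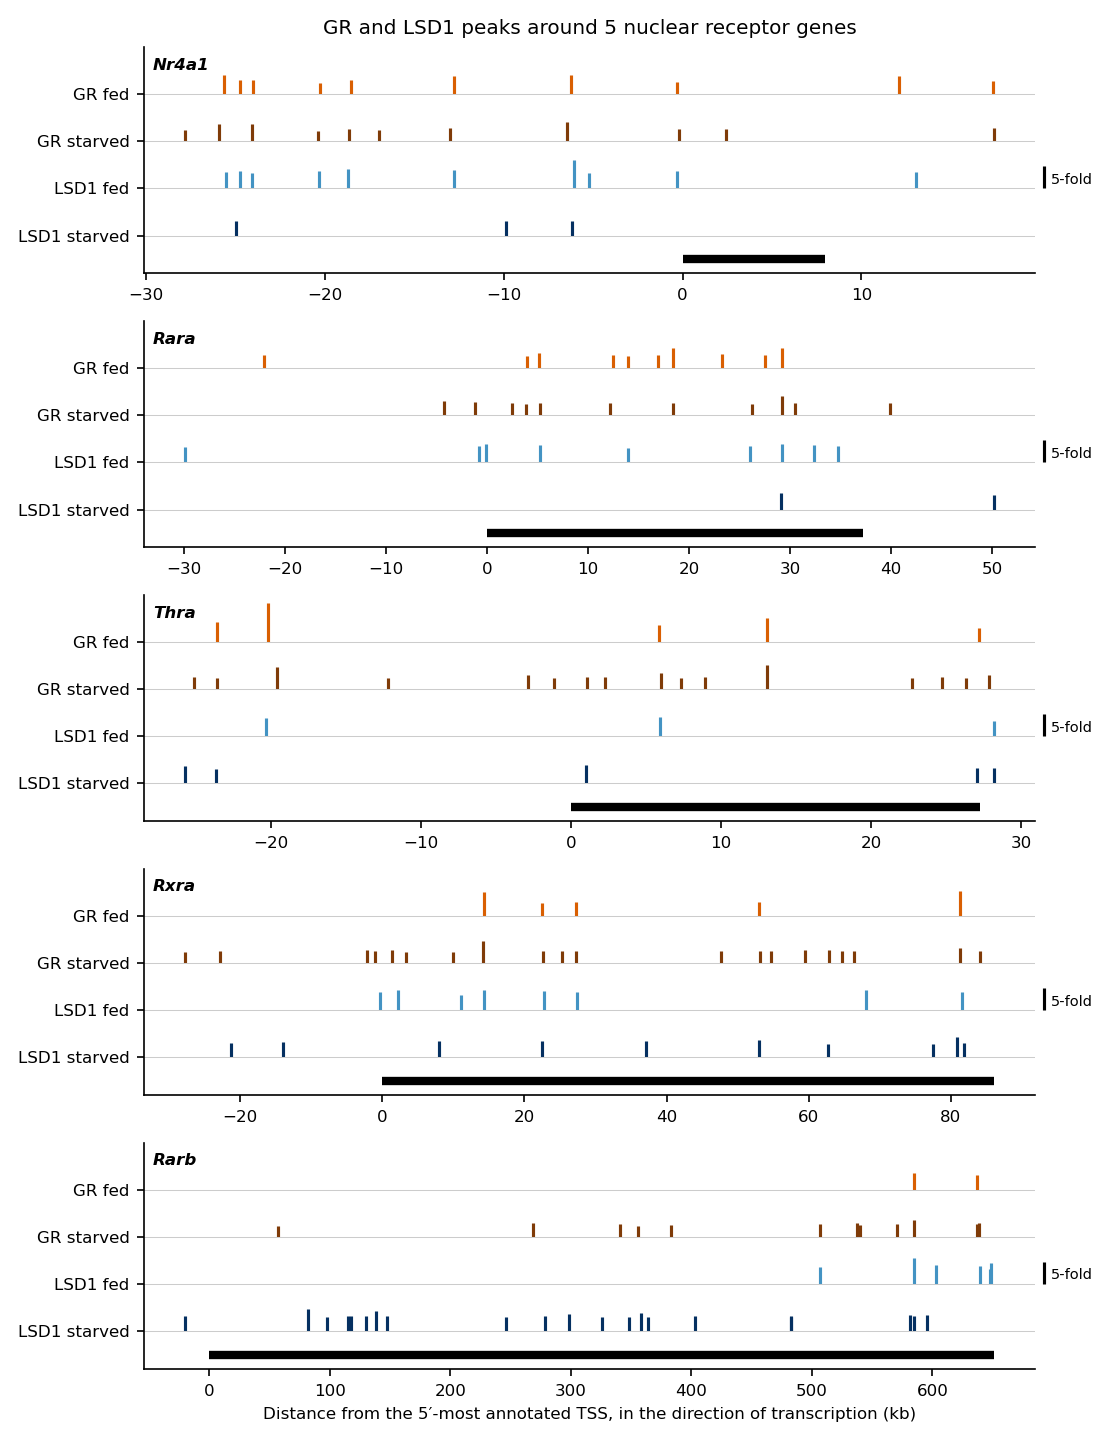
GR and LSD1 peaks in and within 30 kb of *Nr4a1*, *Rara*, *Thra*, *Rxra* and *Rarb*, by distance in kb from the 5′-most annotated TSS in the direction of transcription. Each vertical bar is a peak, its height is the fold enrichment over input (scale bar, 5-fold), the 4 rows are the lists and the black line is the gene body. *Nr4a1* and *Rara* show dense GR rows in both conditions and few LSD1 starved peaks, whereas *Rarb* shows LSD1 starved peaks along its long body.

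In gene bodies, GR peaks were called in 15 genes in fed muscle (39.5%, exact 95% interval 24.0 to 56.6, background 20.5%) and in 22 in starved muscle (57.9%, 40.8 to 73.7, background 41.4%). LSD1 peaks were called in 18 (47.4%, 31.0 to 64.2, background 25.7%) and in 27 (71.1%, 54.1 to 84.6, background 48.1%). The background lay below the interval in 3 of these 4 lists and inside it in GR starved. The receptor genes were longer, with a median of 43.9 kb against 16.7 kb for all genes, so peaks per 100 kb were compared. They numbered 1.08 in GR fed (0.803 over all genes), 2.44 in GR starved (2.19), 1.30 in LSD1 fed (0.932) and 2.97 in LSD1 starved (2.87). The long genes carried many of the LSD1 starved peaks. *Rarb*, at 651 kb, had 2, 12, 6 and 20 body peaks. *Thrb* had 4, 9, 5 and 15 and *Nr3c2* had 0, 2, 1 and 13. Of the 14 LSD1 starved peaks in or near *Nr3c2*, 0 had a q-value of 0.01 or less.

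Overlap between the lists was then compared. Of the 56 GR fed peaks within 30 kb, 33 overlapped an LSD1 fed peak by at least 1 bp (58.9%, exact 95% interval 45.0 to 71.9), against 51.9% over all genes. Of the 120 GR starved peaks, 22 overlapped an LSD1 starved peak (18.3%, 11.9 to 26.4), against 17.6%. Seen from LSD1, 37 of 70 fed peaks overlapped a GR fed peak (52.9%, 40.6 to 64.9), against 41.5%, and 26 of 90 starved peaks overlapped a GR starved peak (28.9%, 19.8 to 39.4), against 16.6%. The last background value lay below the interval of the receptor genes, and the one before lay inside it. Whether this share differs from that of other genes was not tested. Intervals on shares of peaks treat the peaks as independent, and they may therefore be too narrow. Many peaks lie at the same few genes, such as 16 GR starved peaks each at *Rxra* and *Thra*.

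Between conditions, 40 of 56 GR fed peaks overlapped a GR starved peak (71.4%, 57.8 to 82.7), against 69.7% over all genes, and 40 of 120 GR starved peaks overlapped a GR fed peak (33.3%), against 26.7%. Of 70 LSD1 fed peaks, 16 overlapped an LSD1 starved peak (22.9%, 13.7 to 34.4), against 25.7%. More of these 70 peaks, namely 44, overlapped a GR starved peak (62.9%, 50.5 to 74.1), against 57.5%. In the 40 GR pairs the fed fold was the higher one in 35 (87.5%, against 78.1% of 6444 pairs over all genes), with medians of 3.41 in fed and 2.91 in starved muscle. Over all peaks within 30 kb the median folds were 3.18 and 2.72 for GR and 4.02 and 3.47 for LSD1, and over all genes they were 3.21, 2.70, 4.01 and 3.44.

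**Figure D5:**
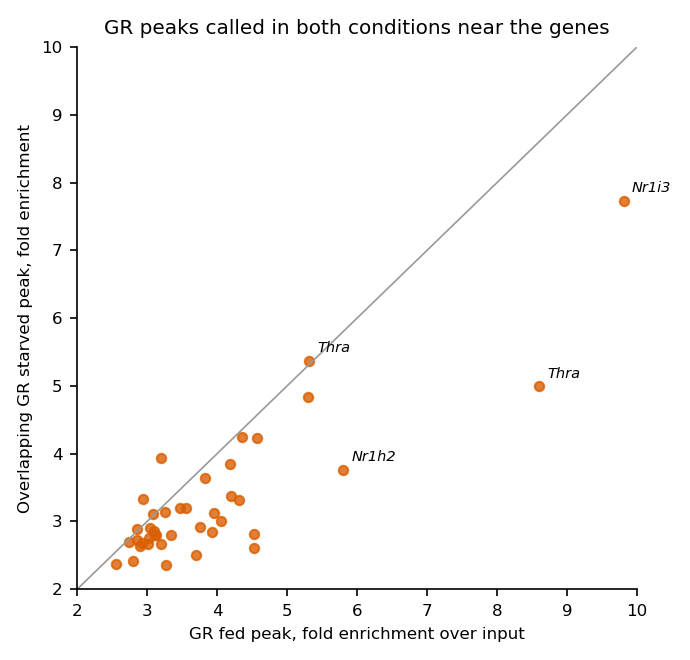
Fold enrichment over input of the 40 GR fed peaks within 30 kb of the nuclear receptor genes that overlapped a GR starved peak (x axis) against that starved peak, the highest where several overlapped (y axis). Each point is a pair, the line marks equal folds, and the names give the 4 pairs with the highest fed fold. Of the 40 points, 35 lie below the line.

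H3K9me2 was called within 30 kb of 37 genes in fed and of 1 gene, *Nr4a2*, in starved muscle, against 95.1% and 7.45% of all genes. At promoters it was called at 13 genes in fed muscle (24.4% of all genes) and at 0 in starved muscle (0.190%). The 13 fell to 4 with peaks of 100 bp or more (16.1% of all genes), to 2 with the q-value limited to 0.01 (6.00%) and to 0 with lists of equal length (1.12%). As deposited, the 13 were *Esr1*, *Nr1h2*, *Nr2c2*, *Nr2f1*, *Nr2f2*, *Nr4a3*, *Nr5a2*, *Nr6a1*, *Rara*, *Rarg*, *Rxrb*, *Thra* and *Vdr*, the vitamin D receptor gene. Within 30 kb the number of H3K9me2 fed peaks ranged from 0 at *Nr0b1* to 16 at *Nr6a1*. Of the LSD1 fed peaks, 9 of 70 overlapped an H3K9me2 fed peak (12.9%, exact 95% interval 6.05 to 23.0), against 18.8% over all genes, and of the GR fed peaks 10 of 56 did (17.9%, 8.91 to 30.4), against 19.5%.

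H3K9me1 was called within 30 kb of 14 genes in fed and of 27 in starved muscle, against 33.6% and 61.6% of all genes. At promoters it was called at *Hnf4a* in fed muscle (2.08% of all genes) and at *Nr2e1*, *Pparg*, *Rarg* and *Rxra* in starved muscle (3.20%). At *Rarg* the H3K9me1 starved peak overlapped the GR peaks of both conditions and the LSD1 fed peak. When the starved list was cut to the length of the fed list, 14 genes were called in each. In gene bodies the 38 genes had 0.333 and 1.33 H3K9me1 peaks per 100 kb in fed and starved muscle (0.632 and 1.60 over all genes), and 8.87 and 0.0832 H3K9me2 peaks (8.01 and 0.178).

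The promoters were finally compared by CpG content, taken at the TSS of the longest transcript. The observed to expected CpG ratio had a median of 0.468 in the 38 genes and of 0.443 in all genes.

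A related gene group was counted in the same way. Of 20 coregulator genes, which encode coactivators and corepressors of nuclear receptors such as NCOA1 and NCOR1, 8, 14, 9 and 5 had a promoter peak (all genes 15.1%, 26.0%, 25.4% and 18.0%), and 17, 18, 16 and 16 had a peak within 30 kb (all genes 42.2%, 65.2%, 51.5% and 81.8%).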

How the data were processed

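ChIP-seq reads of skeletal muscle were mapped by the authors to mm10 and peaks were called per library with MACS2 in broad mode against input. For the removal of reads in blacklisted regions the methods name a list of the human genome, not of the mouse. The methods name Bowtie, whereas the deposited peak names carry Bowtie2, and the submitters' processing notes name bcl2fastq 2.20.0.422. The deposited lists give, per peak, a fold enrichment over input (a ratio) and −log10 of a p-value and of a q-value, of which the p-value was not used here. The largest deposited q-value was 0.0925 to 0.0998 per list, above the false discovery rate of 0.01 that the methods state. Read numbers were not analysed here, so depth is unknown.

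Groups were taken from the labels. Peaks were assigned to 37867 NM_ transcripts of 21000 genes (RefSeq, GRCm38), which have the chromosome lengths of mm10. Shares carry exact (Clopper-Pearson) 95% intervals. Counting, overlap and motif search were tested on simulated data. Python 3.11.15, pandas 2.3.3 and scipy 1.17.1 were used. All 38 genes are named by role, and peaks are described one by one for genes with a GR or LSD1 promoter peak and for the 5 genes with most GR peaks within 30 kb, with coordinates for promoter peaks and for GR peaks of a fold of 5 or more. Other peaks printed with coordinates were chosen after their values had been seen. The genes and lists were chosen with earlier results of these data known. Leaving out the LSD1 starved list, and the q-value limit on combined promoter calls, were added after the data were seen. The other alternatives are stricter q-values and folds, lists of equal length, longer peaks, other windows, start sites, overlaps and mismatch numbers. A further one adds genes with a non-coding (NR_) transcript to the background. Some neighbouring and related genes are not reported here.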

Additional observations from a re-analysis of the deposited data

Results flagged for a closer look

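From fed to starved muscle the number of the 38 genes with a promoter peak changed by 5 for GR and by -5 for LSD1 (starved minus fed), that is, in opposite ways. The share of all genes moved the same ways, from 15.1% to 26.0% for GR and from 25.4% to 18.0% for LSD1. The difference was not tested, since each number rests on 1 library. With the fed and starved lists cut to equal length the changes were -1 and -7.

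The number of genes with a peak within 30 kb changed by 13 for H3K9me1 and by -36 for H3K9me2, again in opposite ways and again untested. Over all genes the share went from 33.6% to 61.6% and from 95.1% to 7.45%. With lists of equal length the changes were 0 and -5, so the H3K9me1 rise was lost. For both marks the condition cannot be told apart from the library code.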

How the results depend on the processing

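Values are given in the order GR fed, GR starved, LSD1 fed, LSD1 starved, H3K9me1 fed, H3K9me1 starved, H3K9me2 fed and H3K9me2 starved. With a q-value of 0.01 or less, promoter peaks remained at 7, 9, 7, 4, 0, 2, 2 and 0 genes. In the first 7 lists the shares of all genes were 9.03%, 12.7%, 11.8%, 3.39%, 0.714%, 1.41% and 6.00%. Gene body peaks remained at 11, 12, 12, 10, 3, 10, 21 and 0 genes. Over all genes 15.3%, 19.4%, 13.7%, 10.7%, 9.31%, 20.0% and 35.3% had one in the first 7 lists. Peaks within 30 kb remained at 17, 19, 18, 12, 5, 16, 26 and 0 genes. In the first 7 lists 32.0%, 39.3%, 32.0%, 21.4%, 15.3%, 35.5% and 64.7% of all genes had one. In H3K9me2 starved at most 1.28% of all genes had a peak in any of these windows. Body peaks per 100 kb were then 0.665, 0.776, 0.554, 0.360, 0.0832, 0.471, 2.02 and 0. At 1e-05 or less no promoter peak remained (at most 1.44% of all genes in a list). Body peaks were left at 6, 4, 1 and 0 genes for GR and LSD1 (7.26%, 4.96%, 0.757% and 0.324% of all genes). Peaks within 30 kb were left at 9, 6, 1 and 0 (13.4%, 9.99%, 1.55% and 0.648%). For both marks 0 genes were left in either window (at most 1.60% of all genes in a list). With a fold of 5 or more, 0 genes had a promoter peak in 7 lists and 1 in H3K9me1 starved (at most 0.867% of all genes in a list). Body peaks were then left at 3, 1, 2, 1, 0, 3, 0 and 0 genes. Over all genes the shares were 3.57%, 1.48%, 2.35%, 0.514%, 1.09%, 3.76%, 1.52% and 0.110%. Peaks within 30 kb were left at 4, 2, 3, 0, 1, 5, 0 and 0 genes. Among all genes 5.94%, 2.87%, 5.08%, 0.981%, 1.52%, 5.61%, 2.40% and 0.105% had one. With lists of equal length the promoter numbers were 10, 9, 13, 6, 1, 2, 0 and 0. The shares of all genes were 15.1%, 13.7%, 25.4%, 7.55%, 2.08%, 1.13%, 1.12% and 0.190%. The body numbers were 15, 12, 18, 15, 8, 8, 8 and 2. Over all genes 20.5%, 20.5%, 25.7%, 21.7%, 19.1%, 17.5%, 11.0% and 5.32% had one. Those within 30 kb were 20, 19, 23, 21, 14, 14, 6 and 1. Among all genes 42.2%, 41.1%, 51.5%, 42.0%, 33.6%, 30.6%, 18.7% and 7.45% had one. Peaks of 100 bp or more left 2 promoters in H3K9me1 starved and 4 in H3K9me2 fed (1.49% and 16.1% of all genes). They left bodies of 3, 12 and 1 genes in H3K9me1 fed, H3K9me1 starved and H3K9me2 starved (6.74%, 18.6% and 3.05%). Within 30 kb they left 6 and 15 genes for H3K9me1 (11.3% and 32.9%). With the start site of the longest transcript, promoter peaks were at 6, 8, 10, 7, 0, 1, 6 and 0 genes. The shares of all genes were then 13.7%, 23.7%, 23.3%, 16.4%, 1.84%, 2.74%, 22.2% and 0.190%. For GR starved, both H3K9me1 lists and H3K9me2 fed, the share of the receptor genes was below that of all genes. As deposited it was above it in these lists. Within 10 kb, 7 and 16 genes had an H3K9me1 peak (14.6% and 30.1% of all genes) and 0 an H3K9me2 starved peak (2.62%). With the q-value limited to 0.01, 1 promoter in place of 7 was called in all 4 GR and LSD1 lists (0.381% of all genes). In place of 3, 1 had both an LSD1 fed call alone and a GR starved call alone (2.14%). Merging peaks within 1 kb lowered the H3K9me2 fed body peaks to 7.82 per 100 kb.

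Overlap of GR with LSD1 peaks was 37.8% in fed and 10.9% in starved muscle at a q-value of 0.01 or less (33.3% and 6.94% over all genes). At a fold of 5 or more it was 0% in both (11.9% and 0.528%), but only 5 GR fed and 2 GR starved peaks were left. Of these 5 GR fed peaks, 40.0% overlapped such a GR starved peak, against 35.7% over all genes. With no mismatch, 0% of GR starved peaks held a GRE-like sequence. The cause of these changes was not tested beyond the fewer peaks that each setting keeps. Over all results and settings, 133 alternative values stayed within 1.5 times the count or within the counting interval of the share, and 104 did not. The 133 include values that the setting could not change. Examples are the shorter list of an antibody at equal length and the GR lists under the 100 bp limit. Adding non-coding genes to the background also left every number of receptor genes as it was. The tally therefore does not measure how stable the results are. Depth limits all counts in a way that is unknown here, and lists of unequal stringency limit every comparison of fed with starved muscle. No paired analysis was possible because each antibody and condition had 1 library.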
